A study of Mus musculus with 36 samples.

Results

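The genes described here are the microsomal cytochrome P450 genes of families 1 to 4 other than 9 named genes. They were taken by gene symbol: every symbol of the count table that names a gene of families CYP1 to CYP4, without Cyp2b9, Cyp2b10, Cyp2b13, Cyp3a11, Cyp1a2, Cyp2e1, Cyp2f2, Cyp4a10 and Cyp4a14 and without pseudogenes. Of 24421 genes in the table, 85 matched, 9 were left out by name, 4 were pseudogenes and 72 remained. One of the 72, Cyp4x1os, is an RNA transcribed opposite to Cyp4x1 and not a P450 itself. The largest subfamilies were CYP2C with 15 genes on chromosome 19, CYP2D with 9 on chromosome 15, CYP4F with 9 of which 8 lie on chromosome 17, CYP3A with 8 on chromosome 5 and CYP2J with 7 on chromosome 4.

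RNA was sequenced from the livers of 36 male C57BL/6J mice, 1 library per mouse, so that p-values measure the spread between mice. All mice had been fed CDAHFD for 12 weeks, a fat-rich diet of defined amino acids without choline that produces steatohepatitis with fibrosis. In one experiment the mice then went for 2 weeks onto HFD, a diet with 60 kcal% from fat, with a weekly injection of Fc (4.3 mg/kg, 10 mice) or Fc(mML1)B3 (5 mg/kg, 10 mice). In the other they received a standard diet for 10 days with injections of Fc (9 mice) or Fc(mML1)B3 (7 mice) at the same doses on days 1, 4 and 7. Fc is the constant part of a human antibody, and Fc(mML1)B3 is Fc with a macrocyclic peptide grafted into a loop that makes it an agonist of the mouse Met receptor, the receptor of hepatocyte growth factor. The mice were inbred and of 1 sex, were bought at 7 weeks of age and were acclimated for 1 week, and none was kept healthy throughout. Diet, experiment, number of injections and length of treatment differ together between the 2 experiments and cannot be told apart.

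Microsomal P450s are heme enzymes of the endoplasmic reticulum that insert oxygen into their substrates with electrons from P450 reductase (Por) and, for some reactions, cytochrome b5 (Cyb5a). In the liver they are made mainly by hepatocytes. Families 1 to 3 act on drugs, foreign chemicals, steroids and bile acids, and family 4 hydroxylates fatty acids and eicosanoids. Their transcription is set by nuclear receptors such as CAR (Nr1i3) and PXR (Nr1i2), by hepatocyte factors such as HNF4A and, for many mouse genes of the CYP2 and CYP4 families, by the sex-specific pattern of growth hormone.

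Libraries held 14949035 to 28466853 counted reads, of which the 72 genes took 0.619% to 1.49%. The tissue label was borne out by 9 hepatocyte markers, whose summed level was 78920 to 161600 CPM (counts scaled to library size) over the libraries. A list of 6 pancreatic acinar and gut markers summed to 65.4 to 177 CPM, of which 54.2 to 163 CPM were Fabp2, and Prss1 alone had no read. Bulk RNA cannot tell fewer cells of a type from less RNA per cell. Libraries 7 and 8 of the HFD Fc group stood apart in these genes, with members' shares of 0.619% and 0.651% where the group's median was 0.895%, and results that rest on them are given with and without them. Within the HFD Fc group they also held the most of the neutrophil markers S100a8 (22.04 and 19.85 CPM, others at most 5.89) and S100a9 (26.2 and 23.7 CPM, others at most 6.07) and of the macrophage marker Cd68 (126.6 and 122.5 CPM, others at most 101.5), and mouse 7 had the highest summed macrophage (746 CPM) and B and plasma cell markers (30.9 CPM) of its group. The part of these cells in the results was not tested. Library numbers in the deposited files fall into runs that split the groups. HFD Fc mice 1 to 4 carry numbers 7 to 10 and mice 5 to 10 numbers 1 to 6. HFD Fc(mML1)B3 mice 1 to 4 carry numbers 1 to 4 and mice 5 to 10 numbers 1 to 6. With numbers repeated, it cannot be told which HFD libraries of the 2 groups share a run, nor the run apart from the protein. Values for treated HFD mice 1 to 4 or 5 to 10 alone are against all 10 HFD Fc mice. Standard diet Fc mice 6 to 9 share a run with all standard diet Fc(mML1)B3 mice and Fc mice 1 to 5 do not. What a run stands for is not stated, and values within runs are given where they bear on a call.

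The members spanned levels from none to among the more abundant liver transcripts. Compared per transcript length, as RPKM (CPM divided by the length in kilobases) averaged over the 36 mice, the highest were Cyp2d26 (624.6 RPKM), the male-type testosterone 16-alpha-hydroxylase Cyp2d9 (596), the coumarin 7-hydroxylase Cyp2a5 (521) and Cyp2d10 (465). Next came Cyp2c29 (314), the steroid 7-alpha-hydroxylase Cyp2a12 (300.5), Cyp2c70 (283), which makes the muricholic acids of mouse bile, and Cyp3a25 (228). Neighbours in this order mostly overlapped within their spread. The order also differed between groups: Cyp2d9 exceeded Cyp2d26 in standard diet Fc (613 and 570 RPKM) and in standard diet Fc(mML1)B3 (769 and 636 RPKM), where Cyp2a5 did so too (719 RPKM), and group means of Cyp2c29 ran from 137.3 to 595.5 RPKM. In HFD Fc mice, for example, Cyp2a5 was at 573 ± 54.3 RPKM and Cyp2d26 at 585 ± 91.4 (SD, n = 10).

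**Figure D1:**
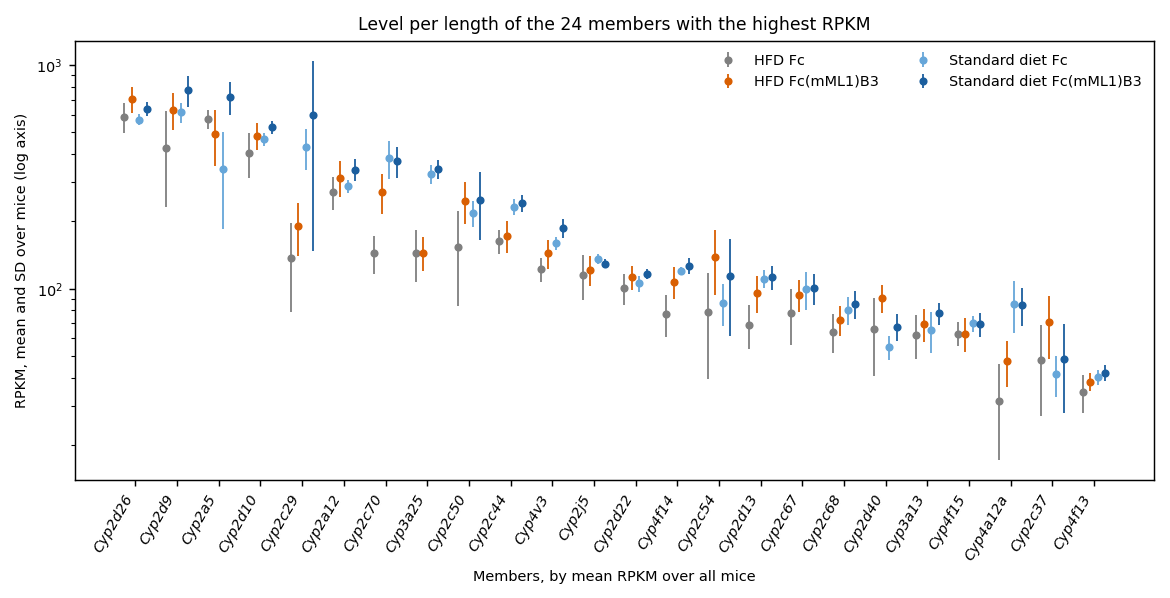
RPKM (log axis) of the 24 members with the highest mean over all mice, 1 position per gene, with points and bars for the mean and SD over the mice of each of the 4 groups. Levels run from 624.6 RPKM for Cyp2d26 downwards, and Cyp2c29, Cyp2c70 and Cyp3a25 sit lower in both HFD groups than in both standard diet groups.

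Summed per subfamily on the RPKM scale, CYP2D stood highest, with 1653, 2120, 1920 and 2229 in HFD Fc, HFD Fc(mML1)B3, standard diet Fc and standard diet Fc(mML1)B3. In the same order CYP2C summed to 882, 1272, 1583 and 1822 RPKM, and CYP2A to 876, 815, 644 and 1081. CYP2A was thus the subfamily whose sum was lowest in standard diet Fc and highest in standard diet Fc(mML1)B3. At the other end, Cyp4x1, Cyp2w1, Cyp3a41b and Cyp2b23 had no read in any library. For Cyp4x1, Cyp2w1 and Cyp2b23 a limit of 3 counts over all 36 libraries would be 0.00381 CPM. The true limit is higher, because each end of a pair was counted. All 2064 exonic bases of Cyp3a41b overlap Cyp3a41a, so that its reads could not be assigned and no limit follows. After the filter on low counts 47 members were tested in the HFD experiment and 50 in the standard diet experiment, and the 25 and 22 that were not tested had means over both groups of the experiment of at most 0.351 CPM (Cyp3a44) and 0.265 CPM (Cyp4f39). Between mice of a group the tested members had a median coefficient of variation of 28.04% in HFD Fc where that of all tested genes was 17.7%, and 19.7% in standard diet Fc where it was 12.4%.

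Under the HFD, the bile acid enzyme Cyp2c70 was higher in every Fc(mML1)B3 mouse than in any Fc mouse, a pair of CYP4F genes and Cyp2d13 were higher by smaller amounts, and Cyp2g1 was lower. Cyp2a4 was lower as well, by an amount set by 2 control mice. By edgeR's quasi-likelihood F-test with Benjamini-Hochberg adjustment over all genes tested, 6 of 47 members passed an adjusted p of 0.05 (12.8%), 4 higher and 2 lower, where 14.8% of all 13299 genes tested passed, 8.14% higher and 6.68% lower. Scaling by library totals instead gave 4 higher and 4 lower. The members' median log2 fold change was 0.16 and that of all genes -0.01, with 32 members positive and 15 negative. The share of members called was thus near that of all genes.

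**Figure D2:**
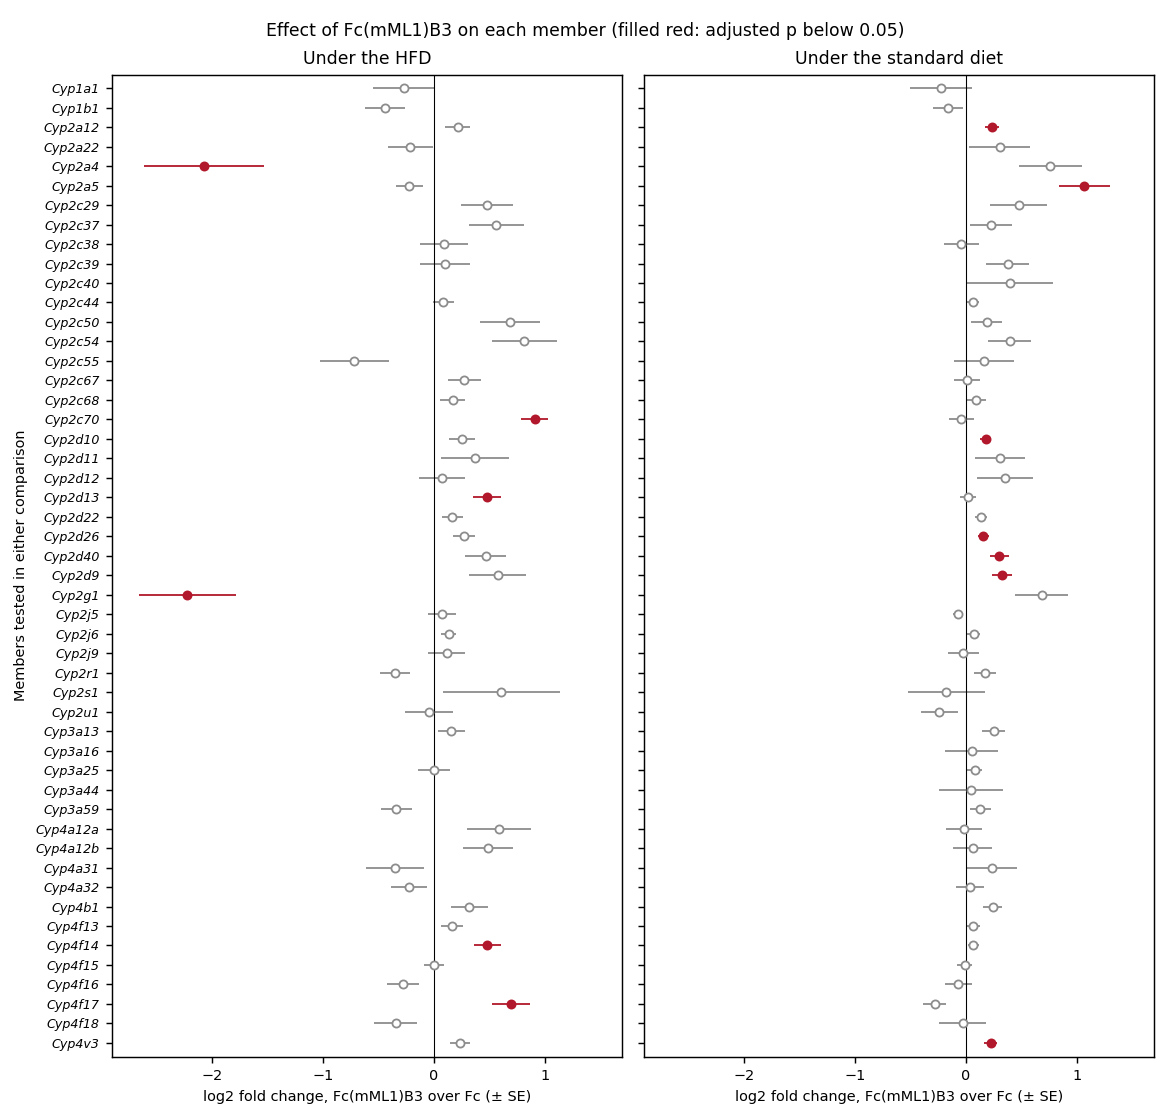
Log2 fold change of Fc(mML1)B3 over Fc with its standard error for each member tested in either experiment, under the HFD on the left and the standard diet on the right, with red for an adjusted p below 0.05. On the left Cyp2c70, Cyp4f17, Cyp4f14 and Cyp2d13 are called higher and Cyp2g1 and Cyp2a4 lower, and on the right 7 genes are called higher, from Cyp2d26 at 0.16 to Cyp2a5 at 1.07.

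Cyp2c70 (chr19:40153361-40187286, minus strand, mm10), which hydroxylates chenodeoxycholic acid on the way to muricholic acids, showed the firmest change. Its level was 189 to 317 CPM with a median of 229 in the HFD Fc mice, and 318 to 581 CPM with a median of 463 in the HFD Fc(mML1)B3 mice. All 10 treated mice lay above all 10 controls, although the lowest treated and the highest control mouse almost met. The log2 fold change was 0.91 ± 0.12 (SE), a 1.88-fold rise with an adjusted p of 3.54e-05, and it was the only member whose groups did not overlap, as was true of 0.962% of all genes tested. It remained called in each run of treated libraries alone, at a log2 fold change of 0.89 for mice 1 to 4 and 0.93 for mice 5 to 10. The other P450s of the bile acid list, Cyp3a13 and Cyp3a25, were not called, with log2 fold changes of 0.16 and 0.00.

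The CYP4F subfamily shortens the action of eicosanoids such as leukotriene B4 by omega-hydroxylation. Cyp4f14 (chr17:32905070-32917342), a leukotriene B4 hydroxylase, was at 117 to 242 CPM (median 195) in HFD Fc and 171 to 318 CPM (median 259) in HFD Fc(mML1)B3, and 7 of 10 treated mice exceeded every control. It rose by 0.48 ± 0.12 on the log2 scale (adjusted p = 0.00965), or by 0.47 with treated mice 5 to 10 alone (adjusted p = 0.0442), and was at 0.51 with mice 1 to 4 alone, where it was not called (adjusted p = 0.0643). Cyp4f17 (chr17:32506462-32528894) was much scarcer, at 3.71 to 8.30 CPM (median 5.60) in Fc and 5.99 to 13.8 CPM (median 8.72) in Fc(mML1)B3, with 5 of 10 treated mice above every control. It rose by 0.69 ± 0.17 (adjusted p = 0.00692). With treated mice 5 to 10 alone it was at 0.91 (adjusted p = 0.00191) and with mice 1 to 4 alone at 0.31 (adjusted p = 0.257), a difference between runs that was not tested. Of 7 CYP4F and CYP4V genes tested these 2 were called, where 14.8% of all genes were called and 8.14% were called higher, and Cyp4f13, Cyp4f15, Cyp4f16, Cyp4f18 and Cyp4v3 were not, although DESeq2 called Cyp4v3 as well (0.24, adjusted p = 0.0469).

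All 8 CYP2D genes tested had a positive log2 fold change under the HFD, and 1 of them was called, where 14.8% of all genes were. Cyp2d13 (chr15:82636750-82642045) was at 63.6 to 162 CPM (median 118) in Fc and 105 to 191 CPM (median 170) in Fc(mML1)B3. The groups overlapped, with 6 of 10 treated mice above every control, and it rose by 0.48 ± 0.13 on the log2 scale (adjusted p = 0.0139), or by 0.56 with treated mice 5 to 10 alone (adjusted p = 0.0177), and was at 0.36 with mice 1 to 4 alone, where it was not called (adjusted p = 0.169). With the replicate number as a block it was not called either (adjusted p = 0.067). Cyp2d9 was at 0.58 and Cyp2d40 at 0.47, neither called (adjusted p = 0.133 and 0.0946). Without Fc mice 7 and 8 Cyp2d9 was at 0.33 (adjusted p = 0.103). DESeq2 also called Cyp2d26 (0.27, adjusted p = 0.0334).

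Of the lower pair, Cyp2g1 (chr7:26808927-26821197, plus strand), known as a P450 of the olfactory mucosa, was scarce throughout. It stood at 0.464 to 3.03 CPM (median 1.51), or 8 to 66 reads, in the HFD Fc mice and at 0 to 0.71 CPM (median 0.261), or 0 to 17 reads, in the HFD Fc(mML1)B3 mice. In 6 of 10 treated mice it was below every control, and 2 had no read. In these 2 a limit of 3 counts would be 0.118 and 0.198 CPM, and the true limit is higher because each end of a pair was counted. The log2 fold change was -2.22 ± 0.44 (adjusted p = 0.00125), with an adjusted p of 0.0526 for treated mice 1 to 4 alone (log2 fold change -1.49) and 0.00116 for mice 5 to 10 alone.

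Cyp2a4, a steroid 15-alpha-hydroxylase that is female-biased in mouse liver, lies on chromosome 7, as do Cyp2g1 and Cyp2a5. In HFD Fc it ranged from 9.82 to 252 CPM with a median of 16.0, and in HFD Fc(mML1)B3 from 6.63 to 16.8 CPM with a median of 11.2. The control range came from mice 7 and 8, at 252 and 98.2 CPM, while the other 8 were at most 25.01. Over all mice the log2 fold change was -2.07 ± 0.54 (adjusted p = 0.012). Without mice 7 and 8 it was -0.46 (adjusted p = 0.117), so that Cyp2a4 was no longer called. Nor was it called with treated mice 1 to 4 alone (-1.89, adjusted p = 0.173) or 5 to 10 alone (-2.19, adjusted p = 0.0546).

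The same 2 control mice were low in many members. In 23 of the 47 members tested under the HFD (48.9%) they were the 2 lowest of the HFD Fc mice, and in 2 (Cyp2a4 and Cyp4a31) the 2 highest, where they were the 2 lowest in 8.08% and the 2 highest in 8.2% of all genes tested, a count made after these mice had been seen to stand apart. The 23 came from the CYP2C, CYP2D, CYP2J, CYP3A, CYP4A and CYP4F subfamilies, with Cyp2g1 and Cyp2r1. Cyp2d9 was at 120 and 261 CPM in mice 7 and 8, the male-biased arachidonic acid omega-hydroxylase Cyp4a12a at 5.70 and 46.4 CPM, the epoxygenases Cyp2c29 at 89.0 and 73.7 CPM and Cyp2c54 at 32.4 and 28.1 CPM, and the receptor gene Nr1i3 at 37.1 and 51.1 CPM. The group medians were 712 CPM for Cyp2d9, 71.6 CPM for Cyp4a12a, 267 CPM for Cyp2c29, 164 CPM for Cyp2c54 and 111 CPM for Nr1i3. In each of these genes the 2 mice were the lowest of their group. Without them, 6 members were called higher and 2 lower under the HFD: Cyp2c70 (0.86), Cyp2d13, Cyp4f14 and Cyp4f17 as before, Cyp2c50 (0.43, adjusted p = 0.0285) and Cyp2c54 (0.56, adjusted p = 0.0451) higher, and Cyp2g1 (-2.44) and the vitamin D 25-hydroxylase Cyp2r1 lower. Over all mice the differences of Cyp2c50 (0.69, adjusted p = 0.0918) and Cyp2c54 (0.82, adjusted p = 0.0627) were larger and not called.

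Under the standard diet, Cyp2a5 was 2.10-fold higher in Fc(mML1)B3 than in Fc mice and 6 other members were higher by 1.12-fold (Cyp2d26) to 1.25-fold (Cyp2d9), 4 of them CYP2D genes, and no member was called lower. Of 50 members tested, 7 were called (14%), all higher, where 16.1% of all 13570 genes tested were called and 8.56% were called higher. At an unadjusted p below 0.05, 12 of the 50 members were higher and 1 lower, where 1967 and 2007 of all 13570 genes were. DESeq2 called 1 member lower, Cyp4f17. Scaling by library totals gave 6 higher and 1 lower. The members' median log2 fold change was 0.11 and that of all genes -0.01, with 37 positive and 13 negative. The share of members called was again near that of all genes.

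Cyp2a5 (chr7:26835339-26843264, plus strand) is the coumarin and nicotine hydroxylase of mouse liver. In standard diet Fc mice it ranged from 254 to 938 CPM with a median of 456, and in Fc(mML1)B3 mice from 974 to 1554 CPM with a median of 1184. All 7 treated mice lay above all 9 controls, as was true of 2.90% of all genes tested and of no other member. Its log2 fold change was 1.07 ± 0.23, a 2.10-fold rise (adjusted p = 0.00328). The control mice were widely spread, and against the Fc mice of the same library run (6 to 9) the log2 fold change was 0.70 (adjusted p = 0.0525). Under the HFD, Cyp2a5 was at 821 to 1145 CPM (median 978) in Fc and 525 to 1386 CPM (median 834) in Fc(mML1)B3, a log2 difference of -0.22 that was not called (adjusted p = 0.243). Treated mouse 5 held the highest value there, and without it the difference was -0.33 and called (adjusted p = 0.0227). The difference of Cyp2a5 thus had opposite signs in the 2 experiments.

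Cyp2a4 and Cyp2a5 are near-copies, and their start regions are shown because the genes differ in level and in the comparisons above while these bases hardly differ. The 250 bases before each RefSeq start in GRCm38.p6 are given 5′ to 3′, with capitals for substitutions between the pair and for the end base that has no partner. Cyp2a4 is chr7:26306942-26307191 and Cyp2a5 chr7:26835089-26835338, both on the plus strand.
Cyp2a4: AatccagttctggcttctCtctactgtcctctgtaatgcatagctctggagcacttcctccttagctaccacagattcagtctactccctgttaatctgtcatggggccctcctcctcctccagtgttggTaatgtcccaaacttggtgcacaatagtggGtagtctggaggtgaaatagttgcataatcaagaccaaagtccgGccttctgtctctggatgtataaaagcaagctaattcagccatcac
Cyp2a5: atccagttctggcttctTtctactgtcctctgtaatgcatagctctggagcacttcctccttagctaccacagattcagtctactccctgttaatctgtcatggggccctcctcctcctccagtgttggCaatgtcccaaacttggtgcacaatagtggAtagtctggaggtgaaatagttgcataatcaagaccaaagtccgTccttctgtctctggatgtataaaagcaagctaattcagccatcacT
They were identical at 245 of 251 aligned positions (97.6%), with 4 substitutions. Of the 1738 bases of the longest Cyp2a4 transcript, 1708 matched that of Cyp2a5, which is 2013 bases long. Of all 100-base stretches of the transcript, 11.2% for Cyp2a4 and 14.4% for Cyp2a5 also occur in another gene, so that some of their reads could not be counted or could be credited to the other gene. Per length, Cyp2a4 was at 6.59 ± 2.00 RPKM in HFD Fc(mML1)B3 and Cyp2a5 at 491 ± 136 (SD, n = 10), and in HFD Fc mouse 7 Cyp2a4 was the highest of its group at 252 CPM and Cyp2a5 the lowest at 821 CPM. Among standard diet Fc mice, 6 to 8 were the highest in both, at 28.4 to 34.1 CPM for Cyp2a4 and 784 to 938 CPM for Cyp2a5. Promoter windows in RefSeq (250 bases before to 50 after the start) were searched for the D-box, a site of clock output factors such as Dbp. Of the 59 members with a window, none held it in the exact letters searched (TTATGTAA, TTACGTAA or TTACATAA, either strand), where 1.23% of 27025 genes did. The E-box CACGTG was held by 2 members, Cyp2j6 and Cyp4v3, and by 8.09% of all genes. Sites with other letters were not searched for, so binding by Dbp remains undecided. No match says only that these letters are not in this window.

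The other 6 calls under the standard diet were small and tight. Cyp4v3, a fatty acid hydroxylase, was at 430 to 531 CPM (median 465) in Fc and 498 to 656 CPM (median 543) in Fc(mML1)B3 and rose by 0.22 ± 0.06 on the log2 scale (adjusted p = 0.0105). Cyp2a12 was at 426 to 523 CPM (median 468) and 482 to 677 CPM (median 554) and rose by 0.24 ± 0.06 (adjusted p = 0.0131). In both genes the groups overlapped. Among CYP2D genes, all 8 tested were positive and 4 were called higher, where 8.56% of all genes were. Cyp2d9 rose by 0.33 ± 0.09 (adjusted p = 0.0141), from 864 to 1160 CPM (median 1022) in Fc to 932 to 1509 CPM (median 1275). Cyp2d40 rose by 0.30 ± 0.08 (adjusted p = 0.0159), from 49.1 to 72.1 CPM (median 59.97) to 62.8 to 96.3 CPM (median 72.2). Cyp2d10 rose by 0.18 ± 0.05 (adjusted p = 0.0201), from 699 to 864 CPM (median 768) to 764 to 934 CPM (median 870), and Cyp2d26 by 0.16 ± 0.05 (adjusted p = 0.0342), from 840 to 1013 CPM (median 946) to 973 to 1158 CPM (median 1027). Transcript stretches shared with other genes made up 14.8% for Cyp2d10, 9.86% for Cyp2d9 and 5.77% for Cyp4v3. Against Fc mice 6 to 9 alone these 6 log2 fold changes were 0.15 (Cyp2d10) to 0.36 (Cyp2d9), and of the 7 called genes only Cyp2d40 remained called (adjusted p = 0.0418), beside Cyp2d22 and Cyp3a13. Cyp2d26 also lost its call without any one of Fc mice 1, 2, 6 and 9 or Fc(mML1)B3 mice 1, 4 and 6 (adjusted p = 0.0502 to 0.0882), and Cyp2d10 without Fc(mML1)B3 mouse 6 (adjusted p = 0.0516).

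A single treated mouse held much of the positive difference of several CYP2C genes. In standard diet Fc(mML1)B3 mouse 5, Cyp2c29 reached 2862 CPM where the group's median was 743, Cyp2c54 401 CPM where it was 187 and Cyp2c55 23.1 CPM, and the CAR target Cyp2b10, which is not among the 72 genes, was at 14.97 CPM. None of these CYP2C genes was called over all mice, at log2 fold changes of 0.48, 0.39 and 0.17. Without this mouse they were 0.00, 0.14 and -0.22. This mouse was also the highest of the experiment in Cyp2c37 and Cyp2c50, while other CYP2C genes had their highest value in other mice, Cyp2c70 in Fc mouse 1 and Cyp2c44 in Fc(mML1)B3 mouse 1.

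**Figure D3:**
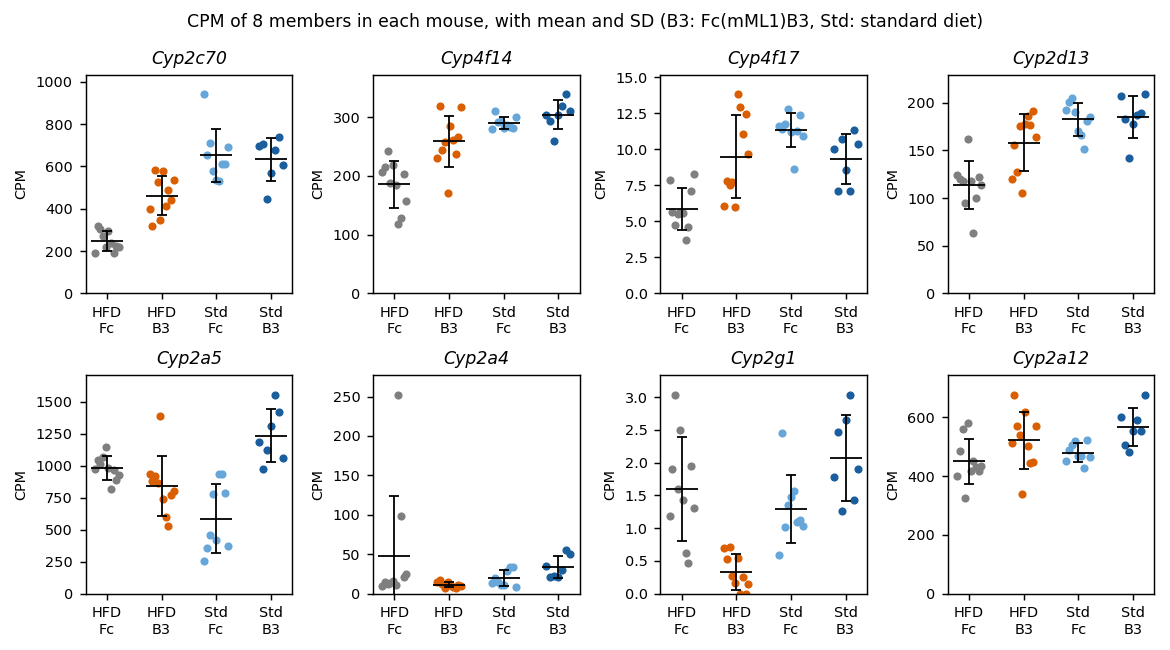
CPM of 8 members in each mouse (dots) with the group mean and SD (black lines), for the 4 groups in each panel; the horizontal place within a group only separates the dots, and the SD bar of Cyp2a4 in HFD Fc is cut at 0. Cyp2c70 under the HFD and Cyp2a5 under the standard diet are the genes whose Fc and Fc(mML1)B3 dots do not overlap, and Cyp2a4 in HFD Fc is spread by mice at 252 and 98.2 CPM.

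Whether Fc(mML1)B3 acted differently in the 2 experiments was tested as an interaction over all 36 libraries, as the effect under the standard diet less that under the HFD. It was called for 5 of 51 members (9.80%), where 9.06% of all 14105 genes tested were called. Cyp2g1 (2.92 ± 0.51, adjusted p = 0.000139), Cyp2a5 (1.30 ± 0.26, adjusted p = 0.000823) and Cyp2a4 (2.84 ± 0.68, adjusted p = 0.00459) were positive, and Cyp2c70 (-0.94 ± 0.18, adjusted p = 0.000319) and Cyp4f17 (-0.96 ± 0.21, adjusted p = 0.0025) negative. Without HFD Fc mice 7 and 8 the value for Cyp2a4 was 1.23 and still called, and Cyp2r1 was called as well. The 3 positive genes lie on chromosome 7, with Cyp2g1 next to Cyp2a5 among the P450 genes and Cyp2a4 farther off, with Cyp2b23 and Cyp2b19 between. Under the standard diet alone Cyp2g1, at 0.587 to 2.45 CPM (median 1.13) in Fc and 1.26 to 3.03 CPM (median 1.90) in Fc(mML1)B3, differed by 0.68 (adjusted p = 0.0558) and Cyp2a4, at 8.43 to 34.1 CPM (median 15.4) and 20.9 to 55.3 CPM (median 29.5), by 0.76 (adjusted p = 0.0742), neither called. Each passed with 1 mouse left out, Cyp2g1 without Fc mouse 2 or Fc(mML1)B3 mouse 3 or 6 (adjusted p = 0.0138 to 0.0486) and Cyp2a4 without Fc mouse 7 or 8 (adjusted p = 0.033 to 0.0353). Cyp2c70 differed by -0.04 there and Cyp4f17 by -0.28 (adjusted p = 0.068). Of the 47 members tested in both experiments, 25 were positive in both, 6 negative in both, 7 positive under the HFD alone and 9 under the standard diet alone. By edgeR no gene was called in both, while DESeq2 called Cyp2d26 and Cyp4v3 higher in both, Cyp2g1 lower and then higher, and Cyp4f17 higher and then lower.

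Genes grouped by role mostly stayed below the threshold. Of the arachidonic acid epoxygenases and hydroxylases, which make vasoactive and inflammatory lipids, 0 of 13 tested under the HFD and 0 of 14 under the standard diet were called by edgeR or by DESeq2, where edgeR called 14.8% and 16.1% of all genes. Their medians were 0.14 and 0.12 on the log2 scale. An unadjusted p below 0.05 was found for 5 and 0 of them, where it was for 3966 of 13299 and 3974 of 13570 genes tested. Without HFD Fc mice 7 and 8, 2 of the 13 were called higher under the HFD, Cyp2c50 and Cyp2c54. Among them the main kidney and liver epoxygenase Cyp2j5 was at 421 ± 95.4 and 443 ± 67.6 CPM in HFD Fc and Fc(mML1)B3 (SD, n = 10 each), and at 496 ± 25.4 (n = 9) and 472 ± 21.7 CPM (n = 7) in the standard diet groups. The CYP1 genes induced by the aryl hydrocarbon receptor, Cyp1a1 and Cyp1b1, were scarce, with medians of 0.88 to 1.56 CPM and 3.92 to 6.54 CPM over the 4 groups, and neither was called in either experiment. Cyp2r1, at a median of 18.6 CPM in HFD Fc and 13.9 CPM in HFD Fc(mML1)B3, differed by -0.35 (adjusted p = 0.0886), and at 18.3 and 21.9 CPM under the standard diet by 0.17. No CYP3A, CYP2J or CYP4A gene was called in either experiment over all mice by edgeR. Cyp3a13 was called against Fc mice 6 to 9 alone, Cyp3a59 was called lower under the HFD with library totals, and Cyp4a12b was called higher under the HFD without Fc mouse 1.

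Of the genes that the P450s depend on, Por and Alas1 differed by over 1 on the log2 scale between the standard diet groups. Por, the reductase that feeds electrons to all of them, was at 174 to 324 CPM (median 263) in standard diet Fc and 485 to 677 CPM (median 530) in standard diet Fc(mML1)B3, with no overlap, a rise of 1.14 ± 0.12 on the log2 scale (adjusted p = 1.63e-06). Alas1, the first enzyme of heme synthesis, rose by 1.18 (adjusted p = 0.0144) and Cyb5a by 0.17 (adjusted p = 0.0257) in the same comparison. Of the 10 partner genes, these 3 were called there, where 16.1% of all genes were called and 8.56% were called higher. Against Fc mice 6 to 9 alone Por was at 0.99 (adjusted p = 0.000193), while Alas1 (0.66, adjusted p = 0.214) and Cyb5a (0.14, adjusted p = 0.201) were not called. Under the HFD 1 of the 10, Cyb5a, was called (0.32, adjusted p = 0.0423), where 14.8% of all genes were, and Por was at -0.18 (adjusted p = 0.476). Without Fc mice 7 and 8 Cyb5a was not called (0.25, adjusted p = 0.107) and Pgrmc2, a membrane protein that binds heme, was called lower (-0.24, adjusted p = 0.0229). The interaction was called for 2 of the 10, Por (1.34, adjusted p = 3.24e-05) and Alas1 (1.63, adjusted p = 0.0222), where 9.06% of all genes were called.

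**Figure D4:**
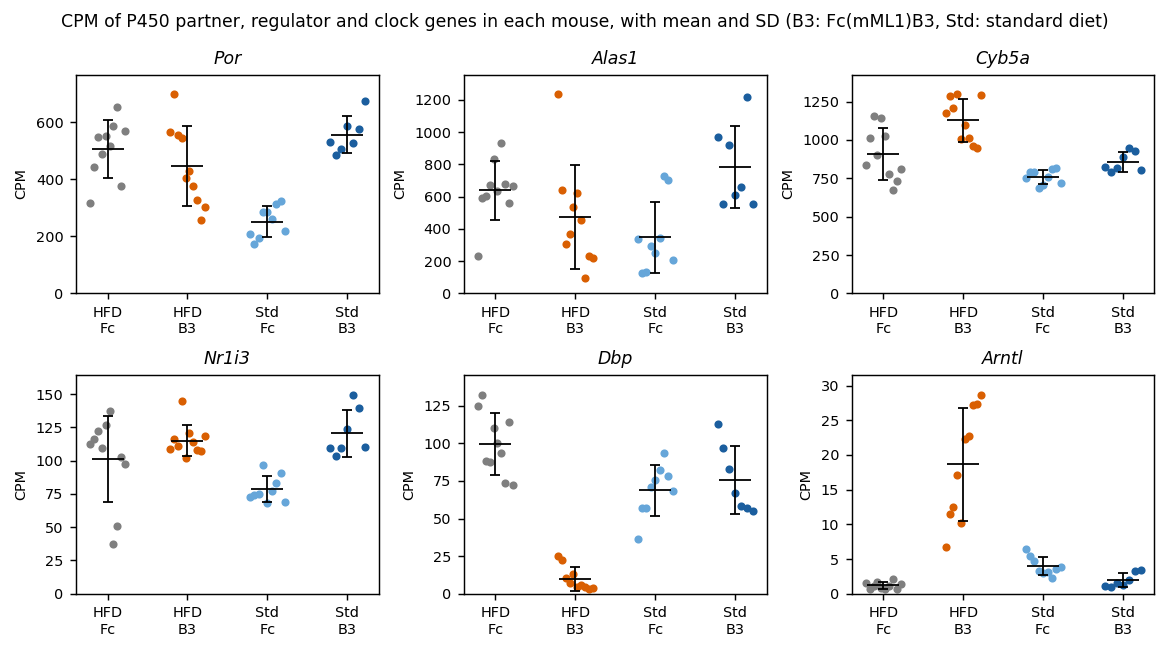
CPM in each mouse (dots), with the group mean and SD (black lines), of the P450 partners Por, Alas1 and Cyb5a, the receptor gene Nr1i3 and the clock genes Dbp and Arntl; the horizontal place within a group only separates the dots. Por separates the standard diet groups, at 174 to 324 CPM in Fc and 485 to 677 CPM in Fc(mML1)B3, and Dbp and Arntl separate the HFD groups.

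Regulators of P450 genes were called in both experiments. Under the HFD Hnf4a (0.37), Foxa2 (0.42) and Stat5b (0.32), which carries the growth hormone signal, were higher, and without Fc mice 7 and 8 Foxa2 was no longer called (0.36, adjusted p = 0.098). Under the standard diet Nr1h4 (0.57), which encodes the bile acid receptor FXR, Esrra (0.63), Nr1i3 (0.62) and Arnt (0.32) were higher and Stat5b (-0.39) lower. The interaction was called for Esrra, Nr1h4, Hnf4a and Stat5b and not for most of the 19 tested, where 9.06% of all genes were called. Of the P450 genes left out of the 72, 0 of 8 tested were called under the HFD by edgeR, where 14.8% of all genes were. An unadjusted p below 0.05 was found for 2 of them, where it was for 3966 of all 13299 genes tested. Under the standard diet 4 of 8 were higher, where 8.56% of all genes were, namely Cyp2e1, Cyp2f2, Cyp1a2 and Cyp2b10. The first 3 were higher by 0.23 to 0.34 and Cyp2b10 by 2.67 on the log2 scale. Without Fc(mML1)B3 mouse 5, which held 376 of the 624 Cyp2b10 reads of all libraries, Cyp2b10 was at 0.92 (adjusted p = 0.351) and Cyp1a2 at 0.27 (adjusted p = 0.112), neither called, and none of the 4 was called against Fc mice 6 to 9 alone. Without HFD Fc mice 7 and 8, Cyp1a2 was called higher under the HFD.

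Circadian clock genes differed between the groups in both experiments. Of 17 tested under the HFD 14 were called, 6 higher and 8 lower, where 14.8% of all genes were called, and of 18 under the standard diet 14, with 9 higher and 5 lower, where 16.1% were. Arntl was at 0.62 to 2.09 CPM in HFD Fc and 6.68 to 28.7 CPM in HFD Fc(mML1)B3 (log2 fold change 3.98, adjusted p = 1.08e-08), and Dbp, a clock output factor that acts on P450 genes, at 72.35 to 132.4 and 3.13 to 25.2 CPM (log2 fold change -3.31, adjusted p = 5.38e-07). Under the standard diet Arntl differed by -1.05 (adjusted p = 0.0108), or by -0.76 against Fc mice 6 to 9 alone (adjusted p = 0.171), and Dbp by 0.14 (adjusted p = 0.625). The part of the clock in the values of Cyp2a5, Cyp2a4, Cyp2g1, Por and Alas1 was not tested. Of 9 hepatocyte markers, 0 were called under the HFD (edgeR, 14.8% of all genes), and 1 was higher (Cps1) and 1 lower (Fgb) under the standard diet (16.1% of all genes). Their summed medians were 114500 and 132900 CPM in HFD Fc and Fc(mML1)B3 and 140800 and 138400 CPM under the standard diet. Under the HFD 2 of 4 neutrophil (S100a8 and S100a9) and 2 of 3 B and plasma cell markers (Jchain and Ms4a1) were called lower. Their log2 fold changes were -1.46, -1.27, -1.23 and -0.68, and 6.68% of all genes were called lower. No macrophage, endothelial, T and NK cell, cholangiocyte or stellate cell marker was called there over all mice. Under the standard diet 2 of 9 stellate cell markers (Pdgfrb and Des, -0.51 and -0.36) and 1 of 7 cholangiocyte markers (Sox9, -0.50) were called lower, where 16.1% of all genes were called. The other non-hepatocyte lists had no call there. Without HFD Fc mice 7 and 8, S100a8 (-0.52, adjusted p = 0.125), S100a9 (-0.25, adjusted p = 0.5) and Jchain (-1.01, adjusted p = 0.0649) were not called, and against standard diet Fc mice 6 to 9 alone Pdgfrb was called and Des, Sox9, Cps1 and Fgb were not. The part of these cells was not tested either.

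The 2 Fc groups were compared to see how the members varied across the study. Standard diet Fc mice had more of the CYP3A genes Cyp3a59 and Cyp3a25, of several CYP2C genes and of CYP4F genes than HFD Fc mice, and less of Cyp2a5, Cyp2a22 and Cyp2d12. Of 51 members tested 26 were called (51.0%), 18 higher and 8 lower, where 47.9% of all 14105 genes were called, 23.3% higher and 24.6% lower. Scaling by library totals gave 14 higher and 10 lower, and a fit on the 19 Fc libraries alone 15 higher and 7 lower. Without HFD Fc mice 7 and 8, 17 were higher and 8 lower, and Cyp1b1 (adjusted p = 0.0541), Cyp2c67 (adjusted p = 0.15) and Cyp4f13 (adjusted p = 0.122) lost their calls, as did Cyp2a4, while Cyp2c40, Cyp2c38 and Cyp2d40 gained one. The members' median log2 difference was 0.14 and that of all genes -0.05. In 10 of the 51 the groups did not overlap (19.6%), as in 9.61% of all genes tested. Called lower in standard diet Fc were 6 of 9 stellate cell and fibroblast, 4 of 5 T and NK cell and 3 of 3 B and plasma cell markers. So were 3 of 7 cholangiocyte, 2 of 7 macrophage, 1 of 4 neutrophil and 1 of 4 acinar and gut markers, where 24.6% of all genes were. Without HFD Fc mice 7 and 8 the 7 counts were 6, 4, 2, 2, 2, 1 and 1. Of 7 endothelial markers Kdr was called higher and Vwf lower, and 4 of 9 hepatocyte markers were higher, where 23.3% of all genes were. The part of these cells in the members' values was not tested.

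**Figure D5:**
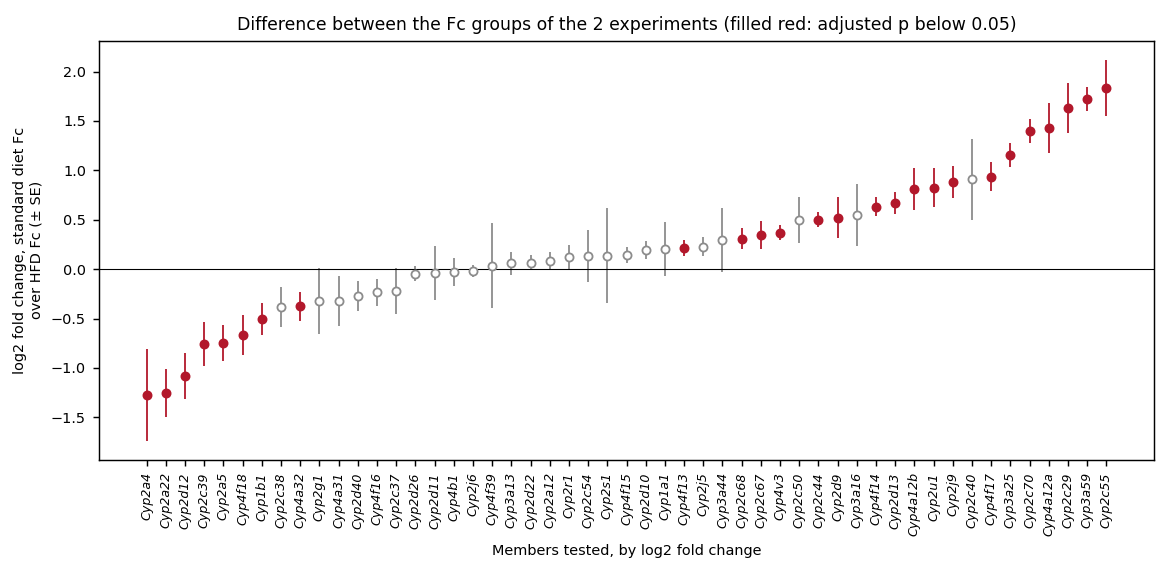
Log2 fold change of standard diet Fc over HFD Fc with its standard error for each of the 51 members tested, in order of the difference, with red for an adjusted p below 0.05. The called genes run from Cyp2a4 at -1.27 to Cyp2c55 at 1.83, with 18 on the higher and 8 on the lower side.

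Cyp3a59 was at 8.48 to 17.1 CPM (median 11.1) in HFD Fc and 30.7 to 44.8 CPM (median 40.0) in standard diet Fc, 1.72 ± 0.12 higher on the log2 scale (adjusted p = 6.47e-14). Cyp3a25 was at 160 to 371 CPM (median 301) and 562 to 725 CPM (median 664), 1.16 higher (adjusted p = 6.66e-10). Cyp2c70 was at 189 to 317 CPM (median 229) and 529 to 940 CPM (median 613), 1.40 higher (adjusted p = 1.22e-11). In all 3 the groups were apart, and the HFD Fc(mML1)B3 median of 463 CPM placed Cyp2c70 between the 2 Fc groups. Cyp4f14 differed by 0.63 (adjusted p = 1.99e-06), Cyp4f17 by 0.94 and Cyp2d13 by 0.67. This comparison and that of the HFD groups share the HFD Fc mice. Cyp2c55, which hydroxylates arachidonic acid, was at 0.124 to 4.13 CPM (median 2.16) and 4.51 to 14.1 CPM (median 8.08), 1.83 higher (adjusted p = 2.23e-06), and Cyp2c29 at 73.7 to 438 CPM (median 267) and 622 to 1088 CPM (median 693).

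Of the lower genes, Cyp2a22 was at 5.64 to 16.8 CPM (median 10.3) in HFD Fc and 1.84 to 6.16 CPM (median 4.95) in standard diet Fc and differed by -1.26 ± 0.25 (adjusted p = 7.21e-05). Cyp2d12 was at 1.11 to 3.18 CPM (median 2.18) and 0.503 to 1.52 CPM (median 0.975), a difference of -1.08 (adjusted p = 0.000219), and Cyp2a5 differed by -0.75 (adjusted p = 0.000929). Cyp2c39 (-0.76, adjusted p = 0.00436) and Cyp4f18 (-0.66, adjusted p = 0.0071), which is known from neutrophils as a leukotriene B4 hydroxylase, were lower as well. The highest Cyp4f18 value, 8.98 CPM, was that of HFD Fc mouse 7, and mouse 8 had 3.66 CPM. The part of neutrophils in these values was not tested. Cyp2a4 differed by -1.27 (adjusted p = 0.0232), and without HFD Fc mice 7 and 8 by 0.34 (adjusted p = 0.285), so that its direction here rested on those 2 mice. Of 8 genes known to be male-biased under growth hormone, 3 of them members (Cyp2d9, Cyp4a12a and Cyp4a12b), 7 were higher in standard diet Fc, where 23.3% of all genes were, and of 9 tested female-biased genes 5 were lower, where 24.6% of all genes were. Without HFD Fc mice 7 and 8 the same 7 male-biased genes were higher, with Cyp2d9 at 0.29 in place of 0.52, and of 8 female-biased genes 3 were lower and 1, Cyp2c40, higher. Cyp2d9 was not called on the 19 Fc libraries alone (0.52, adjusted p = 0.1) or with library totals (0.46, adjusted p = 0.0562). The summed female-biased level was 34.97 to 339 CPM in HFD Fc, highest in mouse 7, and 16.2 to 57.7 CPM in standard diet Fc. The summed male-biased level was 3810 to 14740 CPM (median 9812) in HFD Fc, lowest in mouse 7. In standard diet Fc it was 6858 to 11740 CPM (median 9759). Por was lower by 1.02 on the log2 scale in standard diet Fc (log2 fold change -1.02, adjusted p = 6.79e-07).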

How the data were processed

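RNA sequencing of 36 mouse livers was analysed from the read counts per gene that the authors deposited. Per the labels and methods, the authors extracted RNA with QIAzol, made directional libraries, sequenced pairs of 100-base reads, trimmed them with fastp, removed ribosomal RNA with Bowtie2 2.4.5, aligned to mm10 with STAR 2.7.10a and counted with featureCounts of Subread 2.0.3. Each end of a pair was counted, reads with several alignments were not, and no strand setting was given, so near-identical or overlapping genes (Cyp4x1 and Cyp4x1os, for example) share reads or lose them. The authors' own tests used DESeq2.

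Genes were tested with edgeR 4.0.16 in R 4.3.3 (TMM, filterByExpr, quasi-likelihood F-test, Benjamini-Hochberg over all genes tested, adjusted p below 0.05), each experiment by itself, and over all 36 libraries for the interaction and the 2 Fc groups. Standard errors are the size of a log2 fold change over the root of its F statistic. CPM used TMM over 36 libraries, RPKM divided it by the length in the count files, and limits for no reads (3 counts) cover counting error only. These limits take counts as independent and are too low, since each end of a pair was counted. Named genes were the 8 called with the smallest p in each direction per experiment, 5 for the other comparisons, the 8 with the highest RPKM and the role lists; the vitamin D list held 1 gene of 2 in the table. Members and lists were chosen with earlier results of these data known. Alternatives were DESeq2 1.42.0, other scalings, filters and thresholds, a replicate block, library runs and leaving out libraries; scripts were tested on simulated data. One gene of the regulator list is not reported here.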

Additional observations from a re-analysis of the deposited data

Results flagged for a closer look

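Within groups, 11 of 84 gene-and-group pairs over 21 named genes held a highest or lowest mouse far from the rest by Dixon's test, which chance gives in about 1 of 20 pairs. The 11 values share mice. HFD Fc mouse 7 held the highest Cyp2a4 (252 CPM) and Cyp4f18 (8.98 CPM), HFD Fc(mML1)B3 mouse 5 the highest Cyp2a5 (1386 CPM) and Cyp2d12 (3.98 CPM), and standard diet Fc(mML1)B3 mouse 5 the highest Cyp2c29 (2862 CPM) and Cyp2c55 (23.1 CPM). Single values were Cyp2c70 in standard diet Fc mouse 1 (940 CPM), Cyp4v3 in standard diet Fc(mML1)B3 mouse 1 (656 CPM), Cyp2d40 in mouse 6 (96.3 CPM) and Cyp2a22 in mouse 7 (12.7 CPM) of the same group. The lowest Cyp4f17 in standard diet Fc was that of mouse 6 (8.67 CPM).

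By the interaction test of edgeR, the 2 experiments differed in the effect of Fc(mML1)B3 for Cyp2g1 (2.92 on the log2 scale), Cyp2a4 (2.84) and Cyp2a5 (1.30), each more positive under the standard diet, and for Cyp4f17 (-0.96) and Cyp2c70 (-0.94), each more positive under the HFD.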

How the results depend on the processing

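Counts of members called under the HFD, 4 higher and 2 lower, became 1 and 0 with treated mice 1 to 4 alone, 1 lower with mice 5 to 10 alone, 1 lower with a filter at 1 CPM (which removes Cyp2g1), 4 lower with library totals (Cyp2r1 and Cyp3a59 added) and 0 higher at the study's thresholds (adjusted p below 0.1, fold above 2). Under the standard diet, 7 higher and 0 lower became 3 higher with Fc mice 6 to 9 alone and 1 higher (Cyp2a5) at the study's thresholds (adjusted p below 0.05, fold above 1.5), and 1 lower (Cyp4f17) with DESeq2 and with library totals. Leaving out each mouse gave 4 to 6 higher and 2 to 3 lower under the HFD, and 6 to 9 higher and 0 to 1 lower under the standard diet, the 1 being Cyp4f17 without Fc mouse 6 or Fc(mML1)B3 mouse 6. With the replicate number as a replicate block, 4 members were higher (Cyp2c70, Cyp4f14, Cyp4f17 and Cyp2d40, while Cyp2d13 lost its call) and 1 lower (Cyp2g1, while Cyp2a4 lost its call) under the HFD and 4 higher (Cyp2a4, Cyp2a5, Cyp2r1 and Cyp4v3) and 0 lower under the standard diet. The numbers do not pair mice: same-numbered mice correlated at -0.67 to 0.31 over 10 pairs, 2 of them above 0.1, and at -0.17 to -0.02 over 7. Among called genes 1 direction reversed, that of Cyp2a4 between the Fc groups, at 0.34 without HFD Fc mice 7 and 8, an alternative chosen after seeing the data. At an adjusted p below 0.05 with no fold limit, Cyp2c70 under the HFD was called in all 30 alternatives run and each of the 5 interactions in all 8. Otherwise, in settings other than leaving out each mouse, 52 counts stayed within 1.5 times their value. Of the single-gene values there, 1605 kept their call or stayed not called, the latter whatever their sign, while 25 passed the threshold newly and 33 lost it. With each mouse left out 1707 kept their call or stayed not called, 25 passed newly and 8 lost their call. With library totals the median of all genes was -0.10 under the HFD and -0.13 between the Fc groups. Below about 1 CPM, as for Cyp2g1, reads are too few to show small differences. With mice left out the fit had fewer samples; for the other settings the cause was not tested.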
